A study of Homo sapiens with 12 samples.

Results

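Matrix metalloproteinases (MMPs) are zinc-dependent enzymes that cut proteins of the extracellular matrix, and tissue inhibitors of metalloproteinases (TIMPs) are small secreted proteins that bind and block them. The 10 genes described here were chosen by name from the 58721 genes in the deposited table: the gelatinases MMP2 and MMP9, the secreted stromelysin MMP11, the membrane proteases MMP14, MMP15 and MMP24, and the inhibitors TIMP1, TIMP2, TIMP3 and TIMP4. Gelatinases cleave denatured collagen and the type IV collagen of basement membranes, and are secreted as inactive precursors. At the cell surface MMP14 binds TIMP2, and this pair captures the MMP2 precursor so that a free MMP14 molecule can cut it. TIMP2 is therefore both an inhibitor of MMP14 and part of the machinery that activates MMP2. MMP9 precursor is instead secreted bound to TIMP1, TIMP3 is held in the matrix, and transcription of several of these genes is known to respond to activator protein-1 (AP-1), the dimer of Jun and Fos family proteins.

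EW8 and TC71 are Ewing sarcoma cell lines, both derived from bone and soft tissue tumors driven by a fusion of EWSR1 with an ETS gene. Cells of both lines, in all groups, carried 2 lentiviral constructs, 1 for the Tet-On transactivator under the human EF1 alpha promoter and 1 in which a doxycycline-responsive promoter drives c-Jun and c-Fos as a joint transcript, and had been selected with geneticin and puromycin; the labels give the genotype as WT. The 4 groups were EW8 vehicle (DMSO), EW8 doxycycline, TC71 vehicle and TC71 doxycycline, each with 3 RNA-seq libraries of polyadenylated RNA taken after 72 h, with doxycycline at 2000 ng/ml. Doxycycline-treated cells without the transgenes were not analysed here, so effects of the transgenes and of the drug, which is itself known to inhibit MMP enzymes, cannot be told apart.

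The libraries held between 42860665 and 60853649 counts, in which each mate of a read pair counts once. Levels are given as CPM, read counts put on a common library size with TMM factors. Of the induced genes, JUN was higher with doxycycline by 4.46 (EW8) and 5.19 (TC71) on the log2 scale, and FOS by 4.87 and 7.08. All 6 Ewing sarcoma identity genes looked at were above 6 counts in every group. They were summed in TPM, a unit that corrects for exon length as well as library size. The sums were 2255 to 2321 TPM in EW8 vehicle and 2122 to 2198 TPM in EW8 doxycycline. In TC71 they were 1953 to 2127 TPM with vehicle and 1914 to 1926 TPM with doxycycline. The sum was thus lower with doxycycline in both lines, without overlap. Single genes of this list did change with doxycycline, by less than 1 on the log2 scale. At an edgeR adjusted p under 0.05, 1 was higher and 4 lower in EW8 (all genes 21.9% and 22.0%). In TC71, 2 were higher and 3 lower (all genes 25.1% and 20.4%). TC71 vehicle replicate 1 stood apart from the other libraries of its group, with a chi-square per gene of 58.9 and 56.1 against them, where the other replicate pairs had 5.24 to 10.2. Nothing in the labels says that libraries of a group came from separate cultures, so p-values measure the spread between these libraries, which may be technical.

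With c-Jun and c-Fos induced, transcripts of both gelatinases rose in both lines. MMP2, MMP14, MMP15 and TIMP2 rose more in TC71, TIMP1 rose more in EW8, and TIMP4 rose in EW8, with a difference of -0.30 on the log2 scale in TC71 that did not pass. A gene was called where edgeR's quasi-likelihood test, adjusted over all 21013 genes tested, gave an adjusted p under 0.05 and the log2 fold change was beyond 1 in either direction; "rose" and "fell" are used for changes that passed the adjusted p, with or without the fold limit. All 10 genes passed the filter on low counts. In EW8, 5 of the 10 were called higher (MMP2, MMP9, MMP24, TIMP1 and TIMP4), against 11.4% of all genes tested, and 0 were called lower, against 3.38%. In TC71, 5 of the 10 were called higher (MMP2, MMP9, MMP14, MMP15 and TIMP2), against 12.3% of all genes, and 0 lower, against 3.67%. Below the fold limit, MMP14, MMP15 and TIMP2 rose and TIMP3 fell in EW8, where 21.9% of all genes rose and 22.0% fell at the adjusted p alone. TIMP1 rose and TIMP3 fell below the limit in TC71, where the shares of all genes were 25.1% and 20.4%. At the adjusted p alone, 9 of the 10 changed in EW8, against 43.9% of all genes, and 7 of the 10 in TC71, against 45.6%. MMP11 did not pass in either line. The median log2 fold change of the 10 genes was 0.99 in EW8 and 1.26 in TC71, beside -0.03 and 0.00 for all genes tested. The doxycycline and vehicle libraries did not overlap for 9 of the 10 genes in EW8, against 56.0% of all genes, and for 7 of 10 in TC71, against 50.7%. Since these are bulk samples, a change in the number of expressing cells and a change in RNA per cell cannot be told apart.

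**Figure D1:**
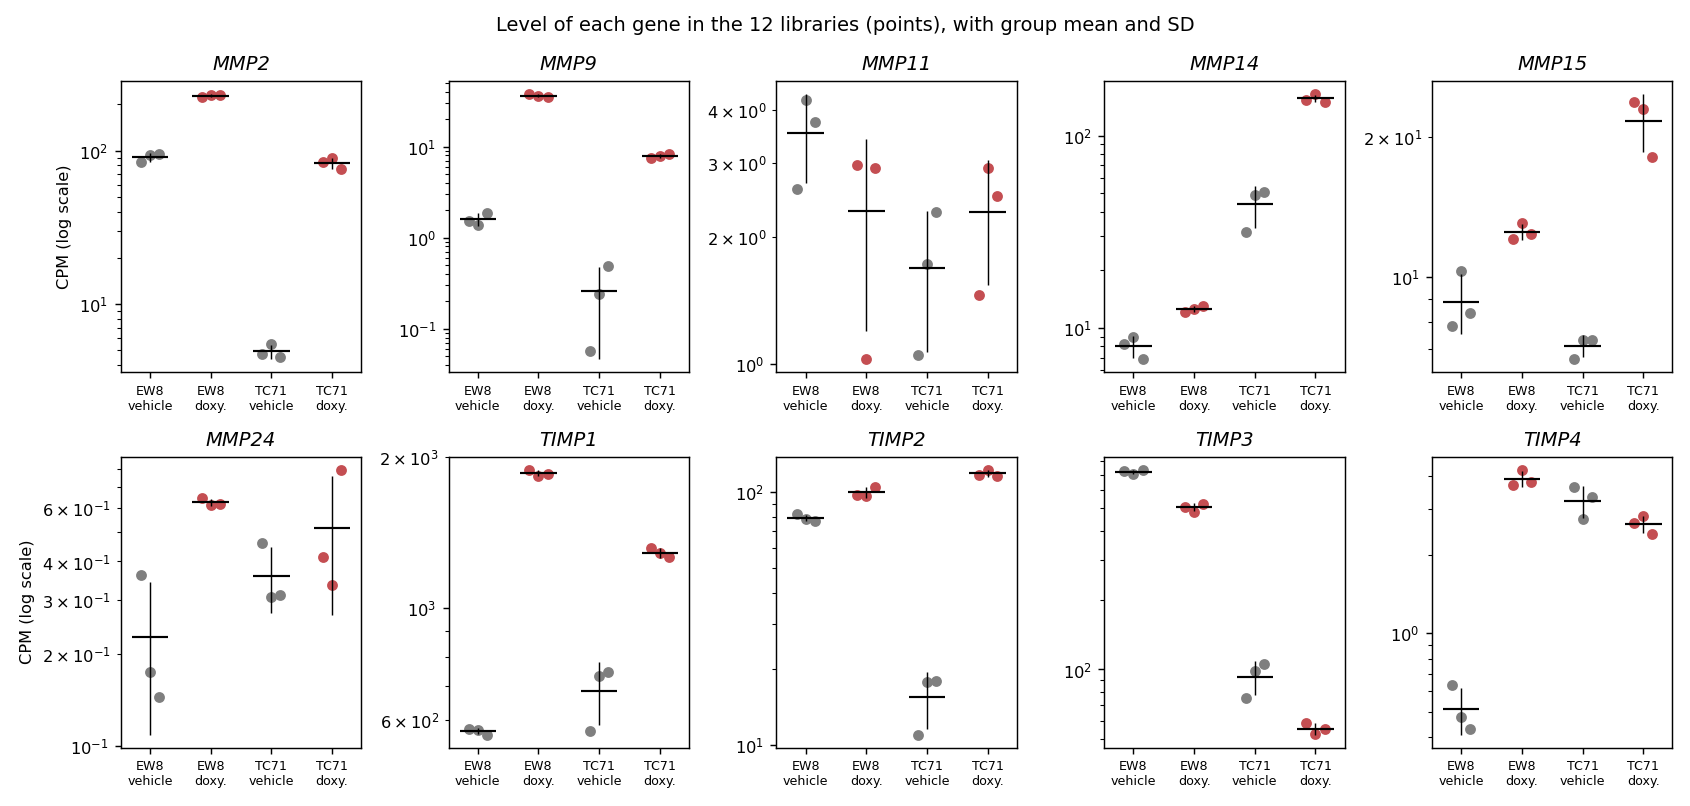
Level of each of the 10 genes in CPM (vertical log axis, scaled separately for each gene) in the 4 groups, with a point for each of the 12 libraries, a bar at the mean of 3 libraries and a line for 1 SD. MMP2 in TC71 goes from 4.92 CPM with vehicle to 83.2 CPM with doxycycline, which overlaps the EW8 vehicle libraries, whereas TIMP3 is lower with doxycycline in both lines.

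MMP2 (chr16:55389700-55506691 of hg38, plus strand) encodes gelatinase A, the form that many mesenchymal cells make without a stimulus. The EW8 vehicle libraries held 83.9, 94.1 and 94.9 CPM of MMP2, and the EW8 doxycycline libraries 222, 230.0 and 231 CPM. In TC71 the values were 4.75, 5.51 and 4.50 CPM with vehicle and 84.3, 89.5 and 75.9 CPM with doxycycline. Each doxycycline library was far above every vehicle library of its line, and the treated TC71 cells had come to the range of untreated EW8 cells. In EW8 MMP2 rose by 1.32 on the log2 scale (SE 0.07, edgeR adjusted p = 4.57e-11), which is 2.50-fold, and by 4.07 in TC71 (SE 0.09, edgeR adjusted p = 5.99e-17), which is 16.8-fold.

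MMP9 (chr20:46008908-46016561, plus strand) encodes gelatinase B, the inducible form, whose promoter is a long known AP-1 target. Its levels in the EW8 vehicle libraries were 1.53, 1.37 and 1.89 CPM, and 37.6, 35.8 and 35.4 CPM followed with doxycycline. TC71 vehicle libraries had only 3, 15 and 25 counts of MMP9, which is 0.0573, 0.242 and 0.485 CPM, and the treated libraries had 7.59, 7.86 and 8.24 CPM. All treated libraries of both lines were above all vehicle libraries of both lines. The rise was 4.49 on the log2 scale in EW8 (SE 0.22, edgeR adjusted p = 8.49e-12) and 4.91 in TC71 (SE 0.28, edgeR adjusted p = 5.45e-11). The fold in TC71 rests on a vehicle group of few counts; it was 4.39 on the log2 scale without TC71 vehicle replicate 1, which had 3 counts, and 5.59 without replicate 3, which had 25.

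MMP11 (chr22:23768226-23784316, plus strand) encodes stromelysin-3, which unlike the gelatinases leaves the cell already active after cleavage by furin. It was low and scattered, with 2.59, 4.23 and 3.75 CPM in EW8 vehicle and 2.97, 1.03 and 2.92 CPM in EW8 doxycycline. TC71 held 1.05, 1.72 and 2.29 CPM with vehicle and 1.45, 2.92 and 2.50 CPM with doxycycline. The groups overlapped in both lines. The fitted differences were -0.61 on the log2 scale in EW8 (95% interval -1.39 to 0.16, edgeR adjusted p = 0.200) and 0.44 in TC71 (95% interval -0.36 to 1.24, edgeR adjusted p = 0.377).

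Among the membrane proteases, MMP14 (chr14:22836557-22849027, plus strand) encodes the cell-surface collagenase that also activates the MMP2 precursor. The EW8 vehicle libraries held 8.23, 8.94 and 6.90 CPM and the EW8 doxycycline libraries 12.03, 12.6 and 12.97 CPM. TC71 started higher, at 31.5, 49.0 and 50.9 CPM with vehicle, and reached 154, 164 and 150.0 CPM with doxycycline. Even the lowest TC71 vehicle library was above the highest treated EW8 library. In EW8 MMP14 rose by 0.65 on the log2 scale (SE 0.15, edgeR adjusted p = 0.00133), below the fold limit, and by 1.83 in TC71 (SE 0.13, edgeR adjusted p = 1.28e-09).

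MMP15 (chr16:58025566-58046901, plus strand) encodes a close relative of MMP14 with the same type of transmembrane anchor. Its levels were 7.85, 10.3 and 8.37 CPM in EW8 vehicle and 12.1, 13.1 and 12.4 CPM in EW8 doxycycline. TC71 held 6.68, 7.34 and 7.34 CPM with vehicle and 23.8, 22.9 and 18.1 CPM with doxycycline. As for MMP14, treated and vehicle libraries were apart in both lines and the wider gap was in TC71. In EW8 MMP15 rose by 0.50 on the log2 scale (SE 0.13, edgeR adjusted p = 0.00444), below the fold limit, and by 1.60 in TC71 (SE 0.13, edgeR adjusted p = 1.10e-08).

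MMP24 (chr20:35226654-35277000, plus strand) encodes a membrane protease best known from neurons, and it was near the limit of detection. EW8 vehicle libraries had 16, 8 and 8 counts and EW8 doxycycline libraries 36, 31 and 27, which is 0.361, 0.174 and 0.144 CPM against 0.644, 0.613 and 0.617 CPM. In TC71 there were 24, 19 and 16 counts with vehicle and 17, 14 and 35 with doxycycline, and the groups overlapped. The rise in EW8 was 1.47 on the log2 scale (95% interval 0.30 to 2.63, edgeR adjusted p = 0.0389), and this call was lost in 7 of 19 alternative analyses, including those without EW8 vehicle replicate 2 (adjusted p = 0.111), EW8 vehicle replicate 3 (0.124) or EW8 doxycycline replicate 1, 2 or 3 (0.0792, 0.0695 and 0.0659). In TC71 the difference was 0.52 (95% interval -0.60 to 1.65, edgeR adjusted p = 0.465). Of the 4414 exon bases of MMP24, 961 (21.8%) lie on exons of other genes, 799 of them on the opposite-strand gene MMP24OS, whose level rose by 0.83 and 0.73 on the log2 scale in the 2 lines. Reads on such shared bases were left out of both genes' counts.

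The sequences just before the transcription start were read for the inhibitors, since TIMP1 is a textbook AP-1 target, and for MMP14 as a protease that rose in both lines. RefSeq promoter entries (GRCh38.p14) matched 7 of the 10 genes, and those of MMP2, MMP9 and TIMP2 were not analysed here. The 250 bases before the start are shown for TIMP1 (chrX:47582186-47582435, plus strand), which rose in both lines, for TIMP3 (chr22:32801455-32801704, plus strand), which fell in both, for TIMP4 (chr3:12158913-12159162, minus strand), called in EW8, and for MMP14 (chr14:22836335-22836584, plus strand). Capitals mark the AP-1-type motifs TGANTCA and TGAGTAA and the GC box GGGCGG on either strand, read 5′ to 3′ along the gene.
TIMP1: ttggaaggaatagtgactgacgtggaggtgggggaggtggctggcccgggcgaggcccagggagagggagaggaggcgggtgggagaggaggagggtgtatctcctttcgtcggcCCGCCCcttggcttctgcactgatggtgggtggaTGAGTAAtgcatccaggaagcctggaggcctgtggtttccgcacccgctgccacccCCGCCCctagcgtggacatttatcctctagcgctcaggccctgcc
TIMP3: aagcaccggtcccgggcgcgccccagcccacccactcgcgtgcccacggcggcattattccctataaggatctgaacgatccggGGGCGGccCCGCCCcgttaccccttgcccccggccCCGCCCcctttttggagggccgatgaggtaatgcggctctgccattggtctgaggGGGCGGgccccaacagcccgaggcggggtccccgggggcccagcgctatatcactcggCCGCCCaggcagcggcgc
TIMP4: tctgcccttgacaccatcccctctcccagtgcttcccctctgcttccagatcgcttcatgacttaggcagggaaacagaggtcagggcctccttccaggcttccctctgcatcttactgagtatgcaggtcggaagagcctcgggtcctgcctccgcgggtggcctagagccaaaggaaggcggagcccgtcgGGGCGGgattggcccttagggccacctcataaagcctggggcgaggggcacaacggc
MMP14: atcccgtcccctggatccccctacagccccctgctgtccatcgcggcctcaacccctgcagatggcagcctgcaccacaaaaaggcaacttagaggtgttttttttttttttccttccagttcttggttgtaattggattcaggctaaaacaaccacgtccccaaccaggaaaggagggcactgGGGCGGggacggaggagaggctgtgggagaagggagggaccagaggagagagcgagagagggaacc
Of the AP-1-type patterns searched, TGAGTAA was found in TIMP1 alone among the 7 windows, from position -101 to -95, counted from the RefSeq start. Other AP-1-type variants were not searched, so this match is a description and not a test. TGANTCA occurred in 0 of the 7. Over all 34943 RefSeq promoter windows of the same length, 2.21% held TGAGTAA or its reverse complement and 6.59% held TGANTCA. The GC box was found in all 7 windows, with 5 matches each in MMP15 and TIMP3, and in 42.5% of all windows. RefSeq starts differ from the starts of the gene spans used for the counts. The TIMP4 window lies wholly within its counted span (chr3:12153051-12159351), and those of TIMP1, TIMP3 and MMP14 reach into theirs. These are matches of letters only, and binding was not measured in these libraries.

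TIMP1 (chrX:47582313-47586789, plus strand) encodes the soluble inhibitor that pairs with MMP9 precursor, and it supplied most TIMP transcripts in every group. The EW8 vehicle libraries held 576, 574 and 561 CPM and the EW8 doxycycline libraries 1884, 1833 and 1848 CPM. In TC71 the values were 571, 733 and 748 CPM with vehicle and 1317, 1289 and 1262 CPM with doxycycline. Untreated libraries of the 2 lines overlapped only through TC71 vehicle replicate 1. Under vehicle TIMP1 was higher in TC71 by 0.26 on the log2 scale (edgeR adjusted p = 0.00402), below the fold limit, whereas with doxycycline EW8 was above TC71. In EW8 TIMP1 rose by 1.70 on the log2 scale (SE 0.07, edgeR adjusted p = 1.28e-12) and by 0.91 in TC71 (SE 0.07, edgeR adjusted p = 6.05e-09), the latter below the fold limit.

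TIMP2 (chr17:78852977-78925387, minus strand), which partners MMP14 in MMP2 activation at the cell surface, rose in both lines by very different amounts. EW8 held 81.9, 78.8 and 77.3 CPM with vehicle and 97.6, 97.0 and 105 CPM with doxycycline. TC71 went from 10.98, 17.7 and 17.8 CPM to 117, 123 and 116 CPM. Thus TC71 was the lower line without induction and the higher line with it. TIMP2 rose by 2.94 on the log2 scale in TC71 (SE 0.12, edgeR adjusted p = 7.07e-13), which is 7.66-fold, and by 0.33 in EW8 (SE 0.11, edgeR adjusted p = 0.0221), below the fold limit and with an adjusted p of up to 0.0698 among the alternatives.

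TIMP3 (chr22:32801701-32863043, plus strand) encodes the matrix-bound inhibitor, which also blocks several ADAM proteases. It was the only 1 of the 10 genes that fell in both lines. EW8 libraries held 726, 706 and 732 CPM with vehicle and 509, 485 and 524 CPM with doxycycline. TC71 held 75.2, 98.5 and 106 CPM with vehicle and 58.6, 52.2 and 55.3 CPM with doxycycline. Treated libraries were below vehicle libraries in both lines, and every EW8 library was above every TC71 library. In EW8 TIMP3 fell by 0.51 on the log2 scale (SE 0.09, edgeR adjusted p = 8.71e-05) and fell by 0.75 in TC71 (SE 0.09, edgeR adjusted p = 1.35e-06), both within the fold limit.

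TIMP4 (chr3:12153051-12159351, minus strand), the inhibitor with the most restricted tissue range, was low in all libraries. EW8 vehicle libraries had 28, 22 and 24 counts, or 0.632, 0.479 and 0.431 CPM, and EW8 doxycycline libraries 3.71, 4.23 and 3.81 CPM. TC71 held 3.63, 2.74 and 3.32 CPM with vehicle and 2.64, 2.82 and 2.41 CPM with doxycycline. The EW8 groups were far apart and the TC71 groups overlapped. In EW8 TIMP4 rose by 2.93 on the log2 scale (SE 0.24, edgeR adjusted p = 1.36e-08), and the difference in TC71 was -0.30 (95% interval -0.74 to 0.15, edgeR adjusted p = 0.279).

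**Figure D2:**
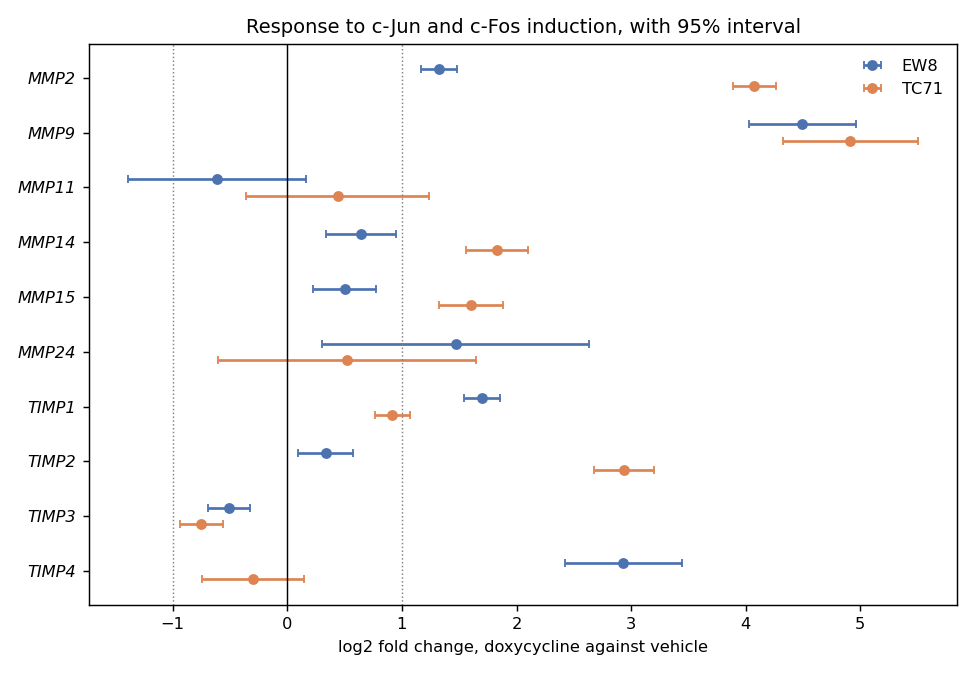
Log2 fold change of doxycycline against vehicle (horizontal axis) for each of the 10 genes (vertical axis) in EW8 and TC71, with points for the edgeR estimates from 3 against 3 libraries, bars for the 95% interval and dotted lines at the fold limit of 1. The intervals of the 2 lines are apart for MMP2 (1.32 and 4.07), TIMP2 (0.33 and 2.94) and TIMP4 (2.93 and -0.30) and overlap for MMP9 (4.49 and 4.91).

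Whether the 2 lines responded differently was tested by an interaction term in the same fit. The response differed for 6 of the 10 genes, against 19.3% of all genes tested at the same adjusted p. It was larger in TC71 for 4 genes (12.2% of all genes) and larger in EW8 for 2 (7.07%). The TC71 response exceeded that of EW8 for MMP2 by 2.75 on the log2 scale (edgeR adjusted p = 6.52e-12), for TIMP2 by 2.60 (2.65e-09), for MMP14 by 1.19 (0.000217) and for MMP15 by 1.10 (0.000294). TIMP4 and TIMP1 responded more in EW8, with TC71 minus EW8 differences of -3.23 (edgeR adjusted p = 8.45e-07) and -0.79 (1.75e-05). For MMP9 the difference was 0.42 (95% interval -0.38 to 1.22), for MMP11 1.05 (-0.06 to 2.17), for MMP24 -0.94 (-2.56 to 0.67) and for TIMP3 -0.24 (-0.50 to 0.02), and none of these 4 passed. The TIMP3 difference did pass without TC71 vehicle replicate 1, at -0.50 (edgeR adjusted p = 5.80e-06), where the fall in TC71 was the larger.

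Before induction the lines already differed in which proteases and inhibitors they made. Under vehicle, TC71 was called higher than EW8 for 2 of the 10 genes (11.6% of all genes) and lower for 5 (18.9%), and at the adjusted p alone 9 of the 10 differed (61.7%), of which MMP15 (-0.31, edgeR adjusted p = 0.0499) did not pass with DESeq2 (adjusted p = 0.0527) or without TC71 vehicle replicate 1 (-0.16, adjusted p = 0.346). MMP14 was higher in TC71 by 2.45 on the log2 scale (edgeR adjusted p = 4.21e-11) and TIMP4 by 2.65 (2.21e-08). Lower in TC71 were MMP2 with -4.20 (edgeR adjusted p = 6.01e-17), TIMP3 with -2.95 (8.96e-15), MMP9 with -2.62 (9.08e-07), TIMP2 with -2.35 (8.34e-12) and MMP11 with -1.06 (0.0195). The MMP9 difference was -3.31 without TC71 vehicle replicate 3. The MMP11 call was lost in 5 of 19 alternatives, those without EW8 vehicle replicate 2 or 3, EW8 doxycycline replicate 1 or 2 or TC71 vehicle replicate 1, with differences between -0.71 and -0.98. The lines' vehicle libraries did not overlap for 8 of the 10 genes, against 64.7% of all genes, and overlapped for MMP24 and TIMP1.

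Ordering the 4 groups by mean CPM, EW8 doxycycline came first for MMP2, MMP9, MMP24, TIMP1 and TIMP4, and TC71 doxycycline for MMP14, MMP15 and TIMP2. EW8 vehicle came first for TIMP3 and MMP11. Neighboring groups did not overlap at any step for MMP9, MMP14, MMP15, TIMP2 and TIMP3. They overlapped at 1 step for MMP2 (EW8 vehicle and TC71 doxycycline), TIMP1 (the vehicle groups) and TIMP4 (the TC71 groups), and at all 3 steps for MMP11 and MMP24.

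Levels of different genes can only be compared per length, so the 6 proteases and the 4 inhibitors were summed in TPM. The proteases summed to 84.0 ± 5.14 TPM in EW8 vehicle and 235 ± 3.29 TPM in EW8 doxycycline, and to 44.7 ± 9.17 and 209 ± 9.84 TPM in TC71 (SD, n = 3 each). The 4 inhibitors were far more abundant than these 6 proteases. They were at 1923 ± 32.7 and 4609 ± 78.1 TPM in EW8 and 1621 ± 232 and 3004 ± 23.7 TPM in TC71. Protease transcripts were made up differently in the 2 lines. MMP2 gave 78.0% ± 1.32 of them in EW8 vehicle and 68.0% ± 0.903 with doxycycline, while MMP14 gave 75.4% ± 3.32 and 57.6% ± 0.926 in TC71. The share of MMP9 went from 2.90% ± 0.491 to 22.8% ± 0.940 in EW8 and from 0.796% ± 0.586 to 5.59% ± 0.489 in TC71, and that of MMP2 in TC71 from 7.94% ± 1.78 to 27.8% ± 0.813. In both lines doxycycline and vehicle libraries did not overlap for these shares.

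Inhibitor transcripts were mostly TIMP1. In EW8 its share was 68.4% ± 0.581 with vehicle and 90.3% ± 0.319 with doxycycline, while the share of TIMP3 was 28.9% ± 0.606 and 8.24% ± 0.271 (SD, n = 3 each). In TC71 TIMP1 made up 94.7% ± 0.148 and 96.0% ± 0.0278 and TIMP3 4.30% ± 0.154 and 1.38% ± 0.0686. TIMP2 gave at most 2.66% of the inhibitor transcripts in any library, and TIMP4 at most 0.562%.

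**Figure D3:**
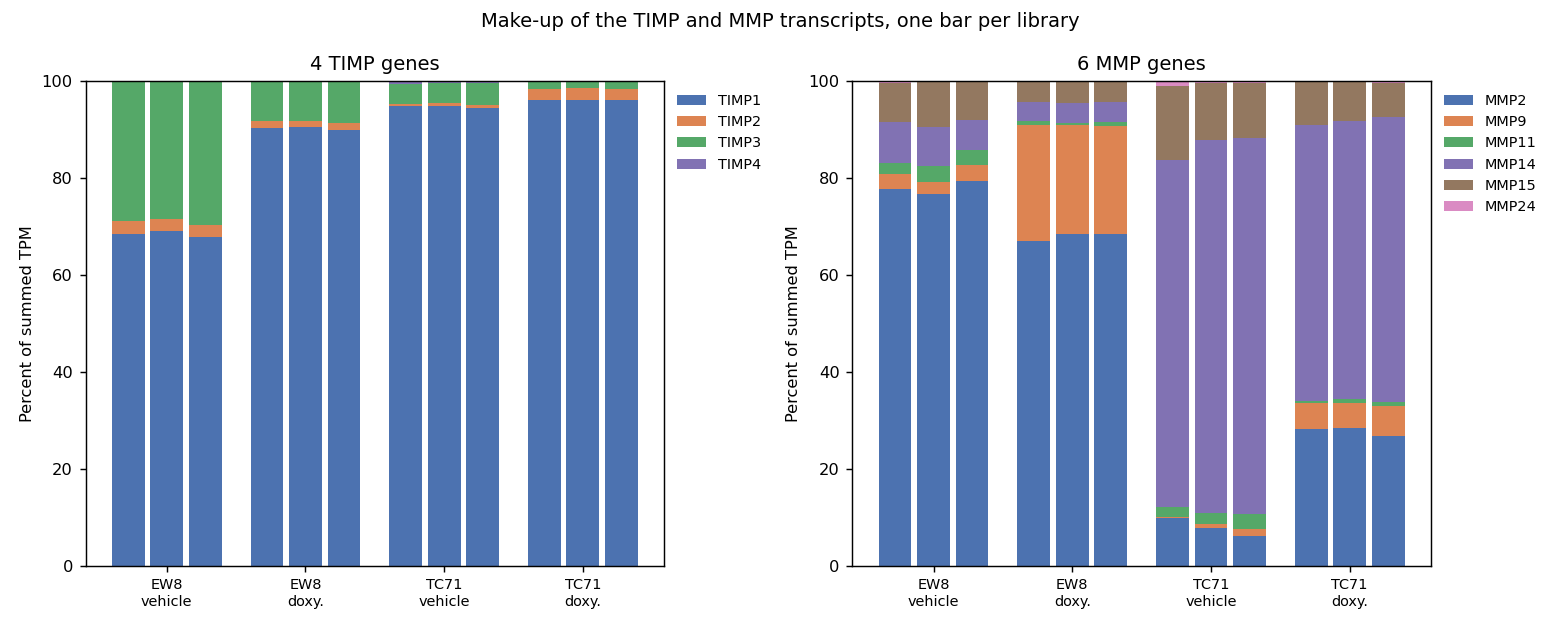
Percent of summed TPM (vertical axis) given by each gene among the 4 TIMP genes (left) and the 6 MMP genes (right), with 1 stacked bar for each of the 3 libraries in the 4 groups. TIMP3 shrinks from 28.9% to 8.24% of the TIMP transcripts in EW8, and MMP9 grows from 2.90% to 22.8% of the MMP transcripts there, whereas MMP14 leads in TC71 with 75.4% and 57.6%.

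The balance of proteases against inhibitors was followed as a log2 ratio in each library, and tested with exact two-sided permutation tests in 8 comparisons (4 ratios in 2 lines). With 3 against 3 libraries the smallest possible p is 0.1, so none could pass; all 8 gave this p, also after Benjamini-Hochberg adjustment, which means that doxycycline and vehicle libraries were fully apart each time. The ratio of summed protease to summed TIMP TPM went from -4.52 ± 0.109 to -4.30 ± 0.0311 in EW8, a difference of 0.22, and from -5.19 ± 0.101 to -3.85 ± 0.0709 in TC71, a difference of 1.34 (SD, n = 3 each). For each transcript of these 6 proteases there were 22.9 TIMP transcripts in EW8 vehicle and 19.6 with doxycycline. In TC71 there were 36.5 and 14.4. With TIMP1 left out of the TIMP sum, the difference in the log2 ratio was 1.92 in EW8 and 1.76 in TC71. MMPs outside the 10 genes were left out of the protease sum. Among them, MMP1 and MMP10 were at 106 and 65.3 TPM in EW8 doxycycline and at 1650 and 1692 TPM in TC71 doxycycline. With vehicle, group means of both were at most 0.756 TPM. The ratios therefore do not describe all MMP transcripts.

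Ratios were also taken for pairs whose proteins are known to bind. The MMP2 to TIMP2 ratio was higher with doxycycline by 0.99 (EW8) and 1.11 (TC71) on the log2 scale, from 0.39 ± 0.140 to 1.38 ± 0.0548 and from -1.43 ± 0.392 to -0.33 ± 0.0873. For MMP14 to TIMP2 the directions were opposite. This ratio was higher by 0.32 in EW8 (-2.98 ± 0.173 to -2.66 ± 0.0418) and lower in TC71, with a difference of -1.11 (1.84 ± 0.0270 to 0.73 ± 0.0261). In TC71 both genes rose, TIMP2 by 2.94 and MMP14 by 1.83 on the log2 scale. MMP14 transcripts nevertheless outnumbered TIMP2 transcripts in all 6 TC71 libraries and were fewer in all 6 EW8 libraries. MMP9 to TIMP1 was higher by 2.81 in EW8 (-9.09 ± 0.250 to -6.28 ± 0.0292) and by 4.46 in TC71 (-12.41 ± 1.36 to -7.95 ± 0.0897). The TC71 vehicle values were spread widely, and the difference was 3.73 without vehicle replicate 1 and 5.07 without vehicle replicate 3. Even with doxycycline there were 77.6 TIMP1 transcripts in EW8 and 248 in TC71 for each MMP9 transcript. Whether the ratio changes differed between the lines was not tested.

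**Figure D4:**
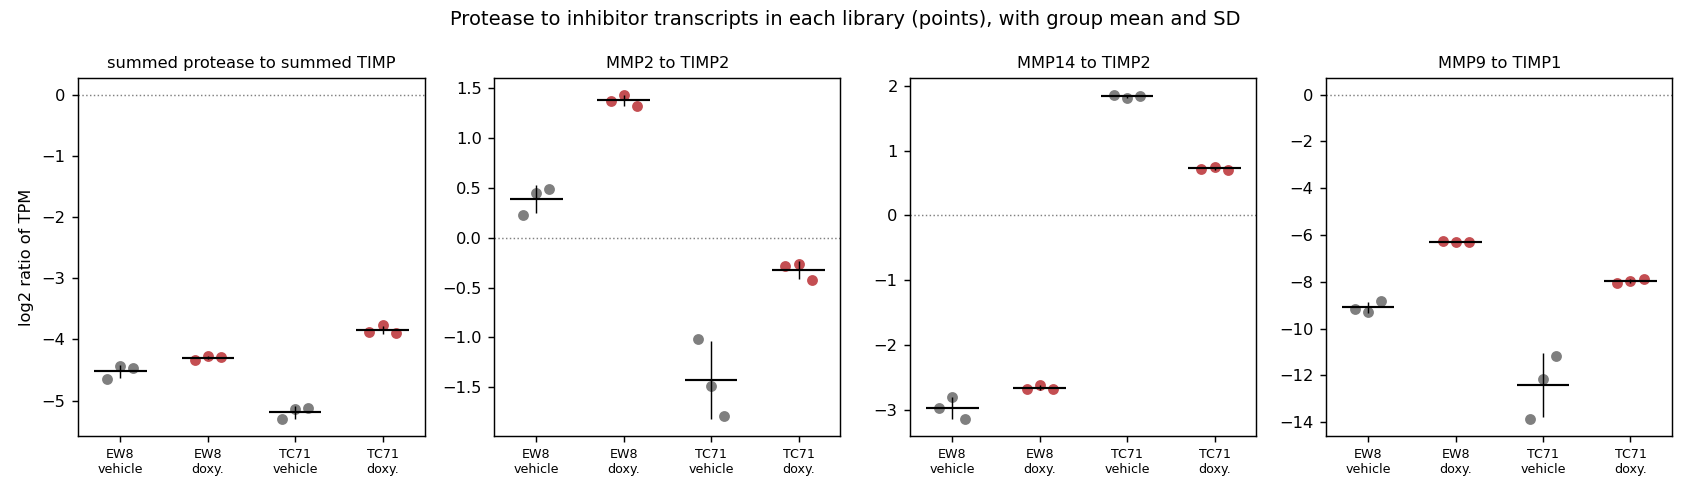
Log2 ratio of protease to inhibitor TPM (vertical axis, scaled separately) for the summed genes and 3 protease and inhibitor pairs in the 4 groups, with a point for each library, a bar at the mean of 3 and a line for 1 SD. MMP14 to TIMP2 goes from -2.98 to -2.66 in EW8 and from 1.84 to 0.73 in TC71, and the dotted line marks equal TPM.

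TIMP1, TIMP3 and TIMP4 each lie within a synapsin gene on the opposite strand, SYN1, SYN3 and SYN2, and the counting did not use strand. TIMP1 and TIMP3 share 0 exon bases with their hosts, and TIMP4 shares 170, or 10.3% of its exon bases, with SYN2. In EW8 SYN1 fell by 1.48 on the log2 scale (edgeR adjusted p = 1.77e-07) and fell by 1.06 in TC71 (5.48e-05), opposite to TIMP1. SYN3 had differences of -0.01 (edgeR adjusted p = 0.986) and 0.24 (0.596), unlike TIMP3. SYN2 rose by 1.04 in EW8 (edgeR adjusted p = 0.0289), from 0.877 to 1.81 CPM, alongside TIMP4, and its difference in TC71 was 0.59 (adjusted p = 0.185). Among the others, MMP9 shares 430 exon bases (18.4%) with SLC12A5-AS1, TIMP2 565 (10%) with ENSG00000267601 and CEP295NL, MMP11 218 (4.21%) with CHCHD10 and MMP2 174 (3.53%) with ENSG00000279030, while MMP14 and MMP15 overlap no other gene. CEP295NL did not pass the filter on low counts.

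Of 16 genes for activation, clearance and docking of these proteases, 15 were tested; 8 were called higher and 0 lower in EW8 (all genes 11.4% and 3.38%), and 9 higher and 2 lower in TC71 (all genes 12.3% and 3.67%). The median log2 fold change over those tested was 1.08 in EW8 and 1.66 in TC71, beside -0.03 and 0.00 for all genes. FURIN, the convertase that removes the propeptide of MMP11 and the membrane MMPs, rose from 126 ± 8.75 to 547 ± 30.8 CPM in EW8 and from 139 ± 6.11 to 694 ± 47.1 CPM in TC71 (SD, n = 3 each), by 2.11 and 2.32 on the log2 scale (edgeR adjusted p = 1.42e-14 and 3.29e-15). RECK, a membrane-anchored inhibitor of MMP2, MMP9 and MMP14, rose in TC71 by 1.06 (edgeR adjusted p = 1.16e-05), and its difference in EW8 was 0.28 (adjusted p = 0.161). BSG, the MMP inducer also called EMMPRIN, rose by 0.27 in EW8 (edgeR adjusted p = 0.000902) and had a difference of 0.13 in TC71 (adjusted p = 0.0729).

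The largest changes in that list were those of CD44, which can dock MMP9 at the cell surface, and of TFPI2, a serine protease inhibitor of the matrix. CD44 had 0 counts in all 3 EW8 vehicle libraries and 10.9 ± 0.437 CPM with doxycycline, at least 80.8-fold higher against a floor of 6 counts per library, and in TC71 it went from 0.0429 to 39.8 CPM. TFPI2 rose by 5.89 (EW8) and 4.36 (TC71) on the log2 scale (edgeR adjusted p = 3.14e-18 and 1.17e-16). A2M and PCSK5 were called lower in TC71: A2M, which traps proteases, had 34 to 66 counts with vehicle and 2 to 28 with doxycycline, and PCSK5, a convertase, had 2 to 20 and 0 to 4, with overlapping groups. In EW8 A2M went the other way, from 17.9 ± 0.893 to 26.1 ± 2.09 CPM (0.55 on the log2 scale, edgeR adjusted p = 0.0474), and PCSK5 fell by 0.94 (edgeR adjusted p = 0.0160), both within the fold limit.

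Of 14 genes for substrates of the gelatinases and membrane MMPs, 3 were called higher and 0 lower in EW8 (all genes 11.4% and 3.38%), with a median log2 fold change of 0.05, and 10 were called higher and 2 lower in TC71 (all genes 12.3% and 3.67%), with a median of 2.74. The medians of all genes were -0.03 and 0.00. The TC71 count includes COL4A1, which had 0 counts in every vehicle library and 0 to 4 with doxycycline, so that both groups were at the floor and overlapped. Further TC71 calls also rested on few counts. COL1A2 had 0 to 2 counts with vehicle and 8 to 14 with doxycycline, at least 2.15-fold higher against the floor. COL4A3 had 3 to 8 and 16 to 33 counts, and COL4A4 14 to 42 and 44 to 74. COL4A2, a type IV collagen chain, was at 0 counts in all TC71 vehicle libraries and 0.674 ± 0.127 CPM with doxycycline, at least 5.79-fold higher against the floor, while EW8 had 63.5 ± 3.02 CPM already with vehicle and 111 ± 9.33 CPM with doxycycline. COL4A6 was at most at 2 counts in EW8 vehicle and rose to 3.85 ± 0.230 CPM, at least 28.5-fold, and rose by 3.67 on the log2 scale in TC71 (edgeR adjusted p = 7.56e-08). The 2 genes called lower in TC71 were DCN, the proteoglycan decorin, with -1.73 (edgeR adjusted p = 1.39e-05), and ELN, elastin, with -1.04 (4.05e-10).

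Outside the gene cluster of collagenases and stromelysins, 6 of 8 further MMP genes were tested, with 2 called higher in each line (all genes 11.4% in EW8 and 12.3% in TC71) and 0 lower. MMP19 rose from 1.03 ± 0.436 to 34.0 ± 0.254 CPM in EW8 (edgeR adjusted p = 2.96e-12), and in TC71 from at most 2 counts to 3.24 ± 0.324 CPM, at least 27.8-fold against the floor. MMP28 was called in EW8 (at least 4.40-fold) and MMP16, a membrane MMP, in TC71 (at least 5.01-fold). Within the cluster, 5 of 9 genes were tested, and 4 were called higher in EW8 (all genes 11.4%) and 5 in TC71 (all genes 12.3%). The stromelysin MMP10 had 0 counts in EW8 vehicle and at most 6 in TC71 vehicle, and 33.2 ± 1.98 and 863 ± 20.4 CPM with doxycycline, at least 245-fold and 7408-fold higher against the floor. MMP12, the macrophage elastase, went from 0 counts in both lines to 4.50 CPM (122 to 310 counts) and 28.9 CPM with doxycycline. MMP13, a collagenase, was called only in TC71 (at least 5.19-fold), and its EW8 groups overlapped. The collagenase MMP1 was at 60.6 ± 3.68 CPM with doxycycline in EW8 and at 943 ± 35.1 CPM in TC71.

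Over the 12 libraries, the genes whose log2 CPM was most like that of MMP2 were DPP4, LGALS1 and ARHGEF10L (Pearson r across libraries 0.997, 0.997 and 0.997). For MMP9 they were TBC1D1, UPP1 and LRRC8A (0.994, 0.993 and 0.992), and for MMP14 TTC7A, MFAP2 and PVT1 (0.998, 0.997 and 0.996). MMP15 was most like ERGIC1, LOXL1 and PYGB (0.982, 0.981 and 0.979). TIMP1 was most like ELK3, CDKN1A and KIF3C (0.997, 0.995 and 0.993), TIMP2 like LUZP1, HOMER3 and FN1 (0.986, 0.985 and 0.984), TIMP3 like MYO10, JCAD and TIMM50 (0.998, 0.998 and 0.997) and TIMP4 like GJA5, USP41 and HMGA1 (0.992, 0.974 and 0.972). MMP11 and MMP24, the least certain levels, had the lowest best values, 0.872 with PCDHGB1 and 0.942 with ESRP2. These are descriptions: the 12 libraries fall into 4 groups that all genes share, and the highest values were picked from 21013 genes.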

How the data were processed

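Polyadenylated RNA from 2 cell lines, with and without doxycycline, was made into stranded libraries, 3 for each of the 4 groups, and group and replicate number were taken from the sample labels. The 10 genes and the gene lists were chosen with earlier results of these data known. The authors checked reads with FastQC, aligned them with STAR to hg38 and counted them over GENCODE release 29 exons with featureCounts 2.0.1; the deposited values were raw counts for each gene, not normalized. Per the file headers, mates were counted singly, strand was not used, and reads mapping to several places or overlapping several genes were left out. Counts of overlapping genes, and JUN and FOS counts, which may mix transgene and endogenous reads, are uncertain for that reason. The deposited exon lengths gave the TPM values.

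edgeR 4.0.16 in R 4.3.3 was run on all 12 libraries with the 4 groups as levels, TMM scaling and filterByExpr, which kept 21013 genes holding 99.95% of counts, with a common dispersion of 0.0143. Benjamini-Hochberg adjustment covered these genes, and calls needed an adjusted p under 0.05 and a log2 fold change beyond 1. The interaction needed the adjusted p alone. Library totals ran from 42860665 to 60853649 counts, and 6 counts (3 read pairs) in every library of a group was taken as the floor, which covers counting error only. Errors are SD over 3 libraries, or SE and 95% intervals. The SE was worked out from the log2 fold change and the statistic of edgeR's quasi-likelihood test, and the interval from this SE. Both are approximate, above all at few counts. For MMP9 in TC71 the upper limit was 5.50, below the 5.59 found without vehicle replicate 3. Leaving out single libraries for the pair ratios was added after seeing the data. The other alternatives were DESeq2 1.42.0 (the test the authors describe), median-ratio and library-size scaling, no filter, at least 10 counts in every library, the 2 groups alone, no fold limit, a replicate block, and leaving out each library.

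Named were the 10 genes, at most the 2 largest and 2 smallest changes among called genes of each list, FURIN, RECK, BSG, JUN and FOS, genes overlapping the 10, and for each of the 10 the 3 most alike in log2 CPM (pseudocount 0.1). COL4A1, COL1A2, COL4A3, COL4A4, PDGFRB, PTPRC and CD3E were named after their values were seen.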

Additional observations from a re-analysis of the deposited data

Results flagged for a closer look

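The response to doxycycline differed between the lines, by the interaction term of the edgeR fit over 3 libraries in each of the 4 groups, for 6 of the 10 genes. MMP2 had a TC71 minus EW8 difference of 2.75 on the log2 scale (edgeR adjusted p = 6.52e-12), with every treated library above every vehicle library in both lines. The TIMP2 difference was 2.60 (edgeR adjusted p = 2.65e-09), and TC71 went from below to above EW8. For MMP14 and MMP15 the differences were 1.19 and 1.10 (edgeR adjusted p = 0.000217 and 0.000294), again with higher levels in all treated libraries of both lines. The TIMP1 difference was -0.79 (edgeR adjusted p = 1.75e-05), a smaller rise in TC71. The TIMP4 difference was -3.23 (edgeR adjusted p = 8.45e-07), with a rise in EW8 and overlapping groups in TC71. All 6 passed under each alternative that was run, the fit with a replicate block included.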

How the results depend on the processing

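The number of the 10 genes called in EW8 was 5, but 3 when at least 10 counts were required in every library (MMP9 and MMP24 were then not tested) and 9 with no fold limit; leaving out 1 library gave 4 to 5, the lost call being MMP24. Leaving out 1 library gave 5 to 5 calls in TC71, 6 to 7 for the interaction and 6 to 7 between the vehicle groups. The MMP9 interaction turned from 0.42 to -0.15 on the log2 scale without TC71 vehicle replicate 1 (edgeR adjusted p = 0.831), ran from -0.15 to 1.05 when leaving out 1 library, and passed in none. Of the other values of single genes, 739 kept their direction and stayed called or not called. In 12 a call was lost (MMP24 in EW8 and MMP11 between the vehicle groups), and 10 gained 1 (8 through dropping the fold limit and TIMP3's interaction in 2). Changes below the fold limit count as kept here even where the adjusted p no longer passed. This was so for TIMP2 in EW8 (adjusted p up to 0.0698) and MMP15 between the vehicle groups (up to 0.346). The difference in summed protease to TIMP ratio in EW8 ran from 0.16 to 0.26 when leaving out a library, and was 0.52 with CPM sums and 0.14 with the mean of log2(TPM + 1) (exact permutation p = 0.2); in TC71 it ran from 1.29 to 1.38. Leaving out single libraries, chosen after seeing the data for the pair ratios, kept the direction of all 6. Library-size scaling moved the median of all genes by at most 0.08 (log2). Deviations of same-numbered vehicle and doxycycline libraries had correlations between -0.04 and 0.02, and those of differently numbered libraries between -0.04 and 0.06. With 3 libraries per group these values cannot decide whether replicate numbers pair the samples. A replicate block gave 4 calls in EW8, 5 in TC71 and 6 for the interaction, and MMP24 in EW8 was lost (1.54, edgeR adjusted p = 0.0611). The block was not run between the vehicle groups, since numbers are shared only within a line. Depth limited MMP24 and, in TC71 vehicle, MMP9.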

Other observations

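Markers of other cell types were looked at beside these genes. The 7 leukocyte and endothelial markers summed to 33.7 to 35.9 TPM in EW8 vehicle and 46.6 to 51.1 TPM in EW8 doxycycline, to 0.0364 to 0.145 TPM in TC71 vehicle, where all 7 were at or under 6 counts, and to 1.67 to 2.57 TPM in TC71 doxycycline. PTPRC, the pan-leukocyte phosphatase CD45, was at 65.9 ± 5.41 CPM in EW8 vehicle and 74.9 ± 2.53 CPM in EW8 doxycycline (SD, n = 3 each), a difference of 0.19 on the log2 scale (edgeR adjusted p = 0.192), and at 0 to 6 counts in the 6 TC71 libraries. CD3E, the T cell marker, was at the floor in all 4 groups. PECAM1, an endothelial adhesion molecule, rose by 2.41 in EW8 (edgeR adjusted p = 6.17e-10) and went from 0 counts to 3.66 ± 0.542 CPM in TC71. In all, 2 of the 7 markers were called higher in EW8 (PECAM1 and VWF; all genes 11.4%) and 3 in TC71 (PECAM1, VWF and CDH5, the last with 4 to 10 counts; all genes 12.3%). The 6 fibroblast markers summed to 60.6 to 65.5 and 52.5 to 54.4 TPM in EW8 and to 46.6 to 71.5 and 64.5 to 68.8 TPM in TC71. In EW8, 1 was called higher and 2 lower (all genes 11.4% and 3.38%). In TC71, 1 was called higher and 3 lower (all genes 12.3% and 3.67%). PDGFRA rose by 1.58 in EW8 (edgeR adjusted p = 0.000128), COL1A1 rose by 1.83 in TC71 (1.88e-10), and LUM fell by 2.36 in EW8 (0.00616) and fell by 1.66 in TC71 (0.00585). PDGFRB was called lower in both lines, with -1.08 in EW8 (edgeR adjusted p = 4.06e-06) and -1.42 in TC71 (1.20e-07). DCN was also lower, with -0.93 in EW8 (edgeR adjusted p = 0.0177), within the fold limit, and -1.73 in TC71 (1.39e-05). Of 5 induced genes and close AP-1 partners, 5 were called higher in EW8 (all genes 11.4%) and 4 in TC71 (all genes 12.3%). These counts include JUN and FOS, which the construct itself carries. FOSL1 (6.86 and 5.54) and FOSL2 (5.64 and 3.13) were called in both lines. JUNB rose by 2.14 in EW8 and by 0.57, within the fold limit, in TC71. The part of these markers in the results above was not tested.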
